A study of Mus musculus with 9 samples.

Results

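The nuclear genes for subunits of the oxidative phosphorylation complexes were followed across mouse astroglia and 2 groups of mouse brain tumour cells. Members were the symbols formed by Ndufa, Ndufb, Ndufc, Ndufs or Ndufv with a number, Sdha to Sdhd, Cyc1, and all symbols that begin with Uqcr, Cox4i, Cox5, Cox6, Cox7, Cox8 or Atp5. They numbered 72 of the 14771 named genes in the table: 30 of complex I, 3 of complex II, 9 of complex III, 14 of complex IV and 16 of complex V. The complex was assigned by the form of the symbol alone, so that Ndufa4 is counted under complex I by its name. Of these, 62 passed a minimum of 10 normalized reads in at least 3 libraries and were tested. A further 13 annotated symbols of the same form, among them Ndufs1, Ndufs8, Sdhb and Cox4i1, were not analysed here.

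In oxidative phosphorylation, complex I (NADH dehydrogenase) and complex II (succinate dehydrogenase) pass electrons to coenzyme Q, complex III passes them on to cytochrome c, and complex IV (cytochrome c oxidase) passes them to oxygen. Complexes I, III and IV pump protons across the inner mitochondrial membrane, and complex V (ATP synthase) uses that gradient to make ATP. Complex II is encoded wholly in the nucleus, whereas the other complexes also hold subunits of the mitochondrial genome, which the choice of symbols does not cover.

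The series profiled RNA of cells from brain tumours induced by Foxr2, a forkhead transcription factor, with 3 libraries in each of 3 groups. The AG libraries came from astroglia of strain C57BL/6 with the genotype p53 DN, Nf1 shRNA. The BS and OB libraries came from tumour cells of the brainstem and of the olfactory bulb, of strain 129;C57BL/6 mix, with the genotype Foxr2 overexpression, p53 cko. All 9 libraries thus carried a change at p53, and the label gives Foxr2 to the tumour cells and the Nf1 shRNA to AG. The labels give no age, promoter, passage or treatment. They also do not state that the 3 libraries in a group are separate mice or cultures, so that a p-value here reflects the spread over these samples, possibly technical in part. In each comparison with AG, effects of strain, genotype and cell culture cannot be told apart. In these bulk libraries, fewer cells of a type and less RNA per cell cannot be told apart either.

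The table held 11300273 to 19868282 reads per library, and Foxr2 was at most 0.986 normalized reads in AG and 4505 to 12567 in the tumour libraries. Against its label, AG held almost none of the defining astrocyte transcripts: Gfap ranged from 0.834 to 3.27 normalized reads, Aqp4 from 1.09 to 1.97 and Aldh1l1 did not exceed 5.91, whereas Slc1a3 ranged from 753 to 855 and Gja1 from 4961 to 5396. The 7 of 8 astrocyte markers in the table summed to 5746 to 6288 in AG and 6723 to 29704 in the tumour libraries. The summed level of 6 of 6 mesenchymal markers was 161176 to 174624 in AG and 52.8 to 326 in the tumour libraries. The summed level of 7 of 7 oligodendrocyte precursor markers did not exceed 20.011 in AG and was 34103 to 81182 in the tumour libraries, and 2 of 6 microglial markers summed to 30.9 to 102 over all libraries. The 6 of 6 mature oligodendrocyte markers summed to 95.8 to 102 in AG and 68.3 to 12901 in the tumour libraries, highest in OB_257. These marker levels differ beside every comparison with AG below, and their part in the results was not tested.

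The members took a larger share of the reads in every tumour library than in any AG library. The share of all reads was 1.06%, 0.993% and 1.04% in AG_1, AG_2 and AG_3, 1.34%, 1.69% and 1.82% in BS_287, BS_295 and BS_296, and 1.40%, 1.74% and 1.81% in OB_257, OB_287 and OB_295. After division by the authors' size factors the groups overlapped. In AG the summed normalized reads were then 162115 to 175596, in BS they were 171710 to 233161, and OB had 174776 to 239900, with BS_287 and OB_257 inside or next to the AG range. The 50 most abundant genes took 17.5% to 17.9% of the reads in AG and 11.9% to 14.8% in the tumour libraries. The part of this difference in the members' share was not tested. Complex V made up the largest part of the sum in every library, from 63845 in OB_257 to 109411 in OB_295.

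**Figure D1:**
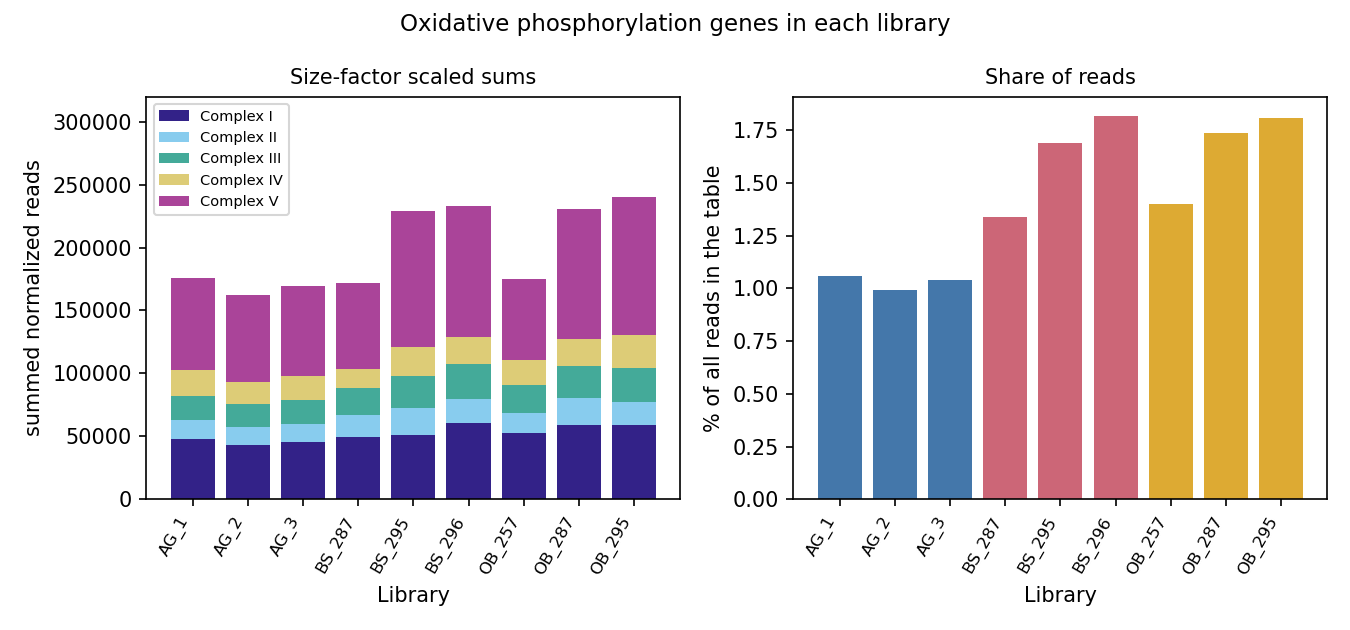
The left bars stack the summed normalized reads of the 72 members by complex for each of the 9 libraries, and the right bars give their share of all reads in percent. The 6 tumour libraries lie between 1.34% and 1.82%, above the AG libraries at 0.993% to 1.06%, while BS_287 and OB_257 stay near the AG sums on the left.

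Across the complexes most members' changes were small and above 0. In OB against AG, 11 of 62 tested members were called (17.7%), 10 higher and 1 lower, where 34.9% of all 10576 tested genes were called. Those higher were 16.1% of the members beside 16% of all genes, and the 1 lower was 1.61% beside 19%. In BS against AG, 11 of 62 were called (17.7%, beside 35.1% of all genes), 10 higher (beside 15.6%) and 1 lower (beside 19.5%). For the mean of both tumour groups against AG, 12 were called (19.4%, beside 42.1%), 10 higher (16.1%, beside 19.5%) and 2 lower (3.23%, beside 22.6%). With the authors' size factors, the share of members called was thus below the background in each comparison. The share called higher was near it or a little below. Those higher include Atp5c1 in each comparison and Cox6a2 in OB against AG. Both reached the minimum for the test through tumour libraries alone. A call is an adjusted p under 0.05 in limma with Benjamini-Hochberg adjustment over all tested genes. The SE and p-value of a gene rest on a residual spread pooled over AG, BS and OB, which were not equally variable.

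The median log2 change of the tested members was 0.29 in OB against AG, where 50 of 62 values were above 0, and 0.26 in BS against AG, where 46 were. The medians over all tested genes were -0.01 and -0.03. The members' changes were also small in size: 57 of 62 (91.9%) lay within 1 on the log2 scale in OB against AG, beside 58.3% of all genes, and 54 of 62 (87.1%) in BS against AG, beside 58.7%. In 25 members every OB library was above every AG library (40.3%, beside 27.5% of all genes), and in 6 every one was below (9.68%, beside 30.8%). For BS such members numbered 16 above (25.8%, beside 26.7%) and 7 below (11.3%, beside 31.8%), and for all 6 tumour libraries 11 above (17.7%, beside 19.4%) and 6 below (9.68%, beside 25%). Both comparisons use the same AG libraries.

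The counts depended on the scaling and on the AG libraries. With reads divided by the library total, an alternative chosen after seeing the data, 31 of 63 tested members were higher and 0 lower in OB against AG, and 19 higher and 1 lower in BS against AG. That scaling brought the median of all genes to 0.34 and 0.32 and the members' median to 0.64 and 0.60. The members' median was then 0.30 above that of all genes in OB against AG and 0.27 above it in BS against AG, where the size factors gave 0.30 and 0.29. Over all genes, total-read scaling called 2680 higher and 1481 lower in OB against AG, in place of 1687 and 2008, and 2568 higher and 1484 lower in BS against AG, in place of 1652 and 2060. The share of members called higher was then above that of all genes in both comparisons. Without AG_1, AG_2 or AG_3, the members called were 4, 2 and 1 in OB against AG, 3, 3 and 2 in BS against AG, and 5, 3 and 1 for both tumour groups. Calls over all genes also dropped then. In OB against AG they were 1059 higher and 1027 lower without AG_1, 1050 and 1036 without AG_2, and 1050 and 1048 without AG_3. In BS against AG they were 999 and 1036, 977 and 1024, and 981 and 1042. The members' median was then 0.33, 0.26 and 0.30 in OB against AG and 0.27, 0.21 and 0.25 in BS against AG. The part of the pooled spread in these drops was not tested. Without OB_287 the members called in OB against AG were 3, without BS_296 those in BS against AG were 5, and without BS_287 those for both tumour groups were 20. Over all genes these fits called 1585 higher and 2004 lower, 1284 and 1777, and 2059 and 2475.

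**Figure D2:**
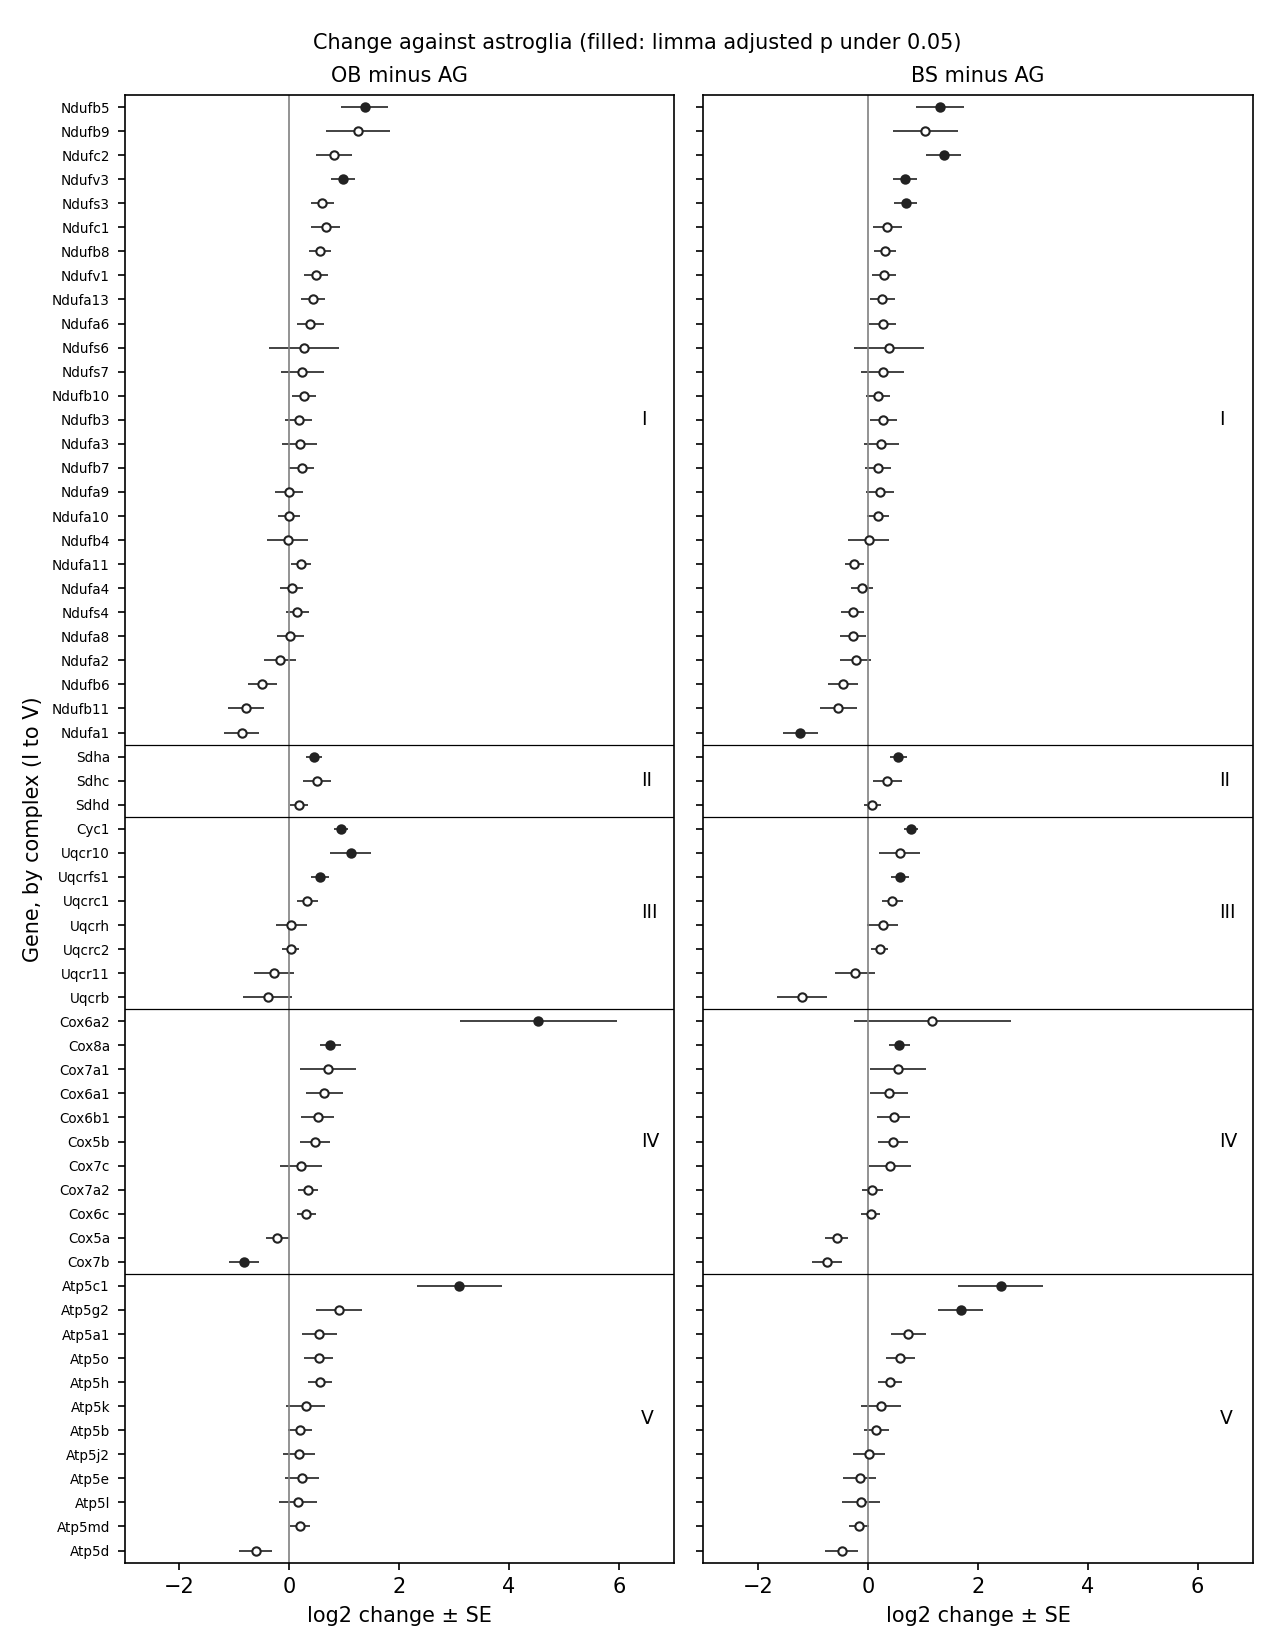
Points give the log2 change of 61 of the 62 tested members in OB minus AG (left) and BS minus AG (right), bars give its standard error, and filled points passed limma at an adjusted p under 0.05. Lines divide complexes I to V, and most points lie between 0 and 1. Above 1 are Cox6a2, Atp5c1, Ndufb5, Ndufb9 and Uqcr10 in OB, and Atp5c1, Atp5g2, Ndufc2, Ndufb5, Cox6a2 and Ndufb9 in BS. The lowest are Ndufa1, Cox7b and Ndufb11 in OB, and Ndufa1, Uqcrb and Cox7b in BS.

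The promoters of 3 called members, Ndufs3, Cox8a and Atp5g2, are shown because they hold a motif of the factors long known to act on respiratory chain genes. They were taken from RefSeq on build GRCm38.p6, not the mm9 build of the table, from 250 bases before to 50 after the annotated start, and are written on the strand of the gene. Capitals mark CCGGAAG or its reverse complement CTTCCGG, the core bound by the ETS factor GABP, and CGCATGCG, which reads the same on both strands and is the middle of the NRF1 site.
Ndufs3 (chr2:90904672-90904971, minus strand): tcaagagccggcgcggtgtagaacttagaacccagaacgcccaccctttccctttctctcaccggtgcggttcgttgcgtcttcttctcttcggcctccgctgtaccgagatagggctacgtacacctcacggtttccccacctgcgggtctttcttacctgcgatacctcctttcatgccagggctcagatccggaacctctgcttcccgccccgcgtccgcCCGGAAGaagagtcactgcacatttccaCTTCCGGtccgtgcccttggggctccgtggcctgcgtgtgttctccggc
Cox8a (chr19:7217567-7217866, minus strand): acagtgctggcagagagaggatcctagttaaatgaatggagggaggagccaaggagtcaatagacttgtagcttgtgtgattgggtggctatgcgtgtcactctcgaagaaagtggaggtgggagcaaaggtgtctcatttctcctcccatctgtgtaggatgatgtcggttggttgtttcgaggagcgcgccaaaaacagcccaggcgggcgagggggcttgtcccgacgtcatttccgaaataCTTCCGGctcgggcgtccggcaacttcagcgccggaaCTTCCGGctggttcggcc
Atp5g2 (chr15:102670998-102671297, minus strand): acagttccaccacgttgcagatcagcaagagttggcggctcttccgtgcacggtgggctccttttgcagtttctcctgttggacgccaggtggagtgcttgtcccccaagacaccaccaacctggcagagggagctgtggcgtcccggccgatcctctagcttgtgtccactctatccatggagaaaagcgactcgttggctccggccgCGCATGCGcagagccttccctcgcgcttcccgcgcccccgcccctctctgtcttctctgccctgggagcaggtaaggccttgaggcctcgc
The Ndufs3 and Cox8a windows hold 2 ETS motifs each and the Atp5g2 window holds 1 NRF1 motif. A window was found for 59 of the 72 members, untested ones such as Atp5pb among them, whereas the background below holds tested genes alone. The ETS motif was present in 14 of these (23.7%) and in 17.6% of the 8213 tested genes with a window. The NRF1 motif was present in 8 members (13.6%) and in 3.64% of tested genes, and the YY1 motif AAGATGGC, or its reverse complement GCCATCTT, in 9 (15.3%) and 4.77%. The ETS motif was also in the windows of Ndufb6, Ndufb7, Sdhd, Uqcr11 and Uqcrh, which were called in no comparison. Of the members with the ETS motif only Ndufs3 and Cox8a were called in any comparison, and of those with the NRF1 motif only Atp5g2. The members with the YY1 motif were not called. Where the table has no window, as for Cyc1, the gene is only named.

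In complex I, 28 of 30 members were tested. In OB against AG 3 rose (10.7%, beside 16% of all genes) and 0 fell, and in BS against AG 4 rose (14.3%, beside 15.6%) and 1 fell (3.57%, beside 19.5%). Ndufs3, a core subunit of the part that carries electrons from NADH to coenzyme Q, had 411, 397 and 371 normalized reads in AG, 538, 574 and 817 in BS, and 534, 610 and 656 in OB. The groups of tumour cells did not overlap with AG, and Ndufs3 rose in BS by 0.68 ± 0.21 (log2 change ± SE, n = 3 libraries a group, limma adjusted p = 0.0340), with 0.60 ± 0.21 in OB (adjusted p = 0.0529). The BS call was lost without AG_1, AG_2, AG_3 or BS_296 (adjusted p up to 0.125). Ndufv1, which binds NADH and the flavin, changed by 0.48 ± 0.21 in OB (adjusted p = 0.113) and 0.29 ± 0.21 in BS (adjusted p = 0.331). Ndufv3 is a small subunit of the same module with 2 RefSeq transcripts, of which 1 had values. It had 424, 451 and 390 normalized reads in AG, 600, 586 and 867 in BS, and 682, 845 and 987 in OB. It rose in OB by 0.97 ± 0.22 (adjusted p = 0.0101) and in BS by 0.68 ± 0.22 (adjusted p = 0.0454). Without AG_3 its adjusted p in OB was 0.0520, and 7 of 21 alternatives lost the call in BS, those without any 1 AG library among them (adjusted p up to 0.154).

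Ndufs7, a core subunit with more than 1 RefSeq transcript, had 7.61 to 16.3 normalized reads in all libraries. The 20 members with 2 or more RefSeq transcripts had a median of mean values of 11.6 normalized reads, beside 2231 for the 52 members with 1, although Ndufa13 and Cox6b1, with 2 transcripts each, had means of 2235 and 1122 in AG. How reads shared by transcripts were counted is not stated, and a low value of such a member is not read as low expression. Ndufv2 and Ndufa7 were below the minimum for the test, at no more than 8.39 and 4.36 normalized reads, and both have more than 1 transcript. Ndufb9, of the same kind, changed by 1.25 ± 0.59 in OB (adjusted p = 0.134) and 1.04 ± 0.59 in BS (adjusted p = 0.204).

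Among the accessory subunits of the membrane arm, Ndufb5 and Ndufc2 were called as higher. Ndufb5 had 1461, 1368 and 1491 normalized reads in AG, 5952, 2666 and 2881 in BS_287, BS_295 and BS_296, and 2321, 7096 and 3148 in OB_257, OB_287 and OB_295. Every tumour library was above AG, and BS_287 and OB_287 were the highest by a wide margin. Ndufb5 rose by 1.37 ± 0.43 in OB (limma adjusted p = 0.0384) and by 1.31 ± 0.43 in BS (adjusted p = 0.0450), and 7 of 21 alternatives lost each call, with an adjusted p up to 0.110 and 0.125. The OB call was lost without OB_287, the BS call without BS_287, and both without any 1 AG library.

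Most of the genes next to Ndufb5 were, like it, highest in BS_287 and OB_287 among the tumour libraries. Of the 16 tested genes nearest to it in gene order, a set chosen after the values of Ndufb5 were seen, 13 (81.2%) were highest in the tumour libraries in BS_287 and OB_287, where 897 of all 10576 tested genes were (8.48%). Its neighbours Mrpl47 and Actl6a differed from the AG mean by 1.86 and 1.72 in BS_287 and by 2.20 and 2.24 in OB_287 on the log2 scale, beside 2.05 and 2.30 for Ndufb5, while in the 4 other tumour libraries Mrpl47 differed by 0.53 to 0.94. Among the tested members, Ndufb5 and Ndufc2 were the 2 that were highest in BS_287 and OB_287 (3.23%). The tested genes nearest to Ndufc2 in gene order did not share this, and Alg8 and Thrsp beside it were highest in BS_295 and BS_296. The labels do not say what the number that these libraries share marks. Xist was 17.6 normalized reads in BS_287 and 7.61 in OB_287 and at least 24325 in the other tumour libraries, while the Y-linked Kdm5d was 0 in BS_287 and 268 in OB_287. What these libraries share in this region was not tested.

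**Figure D3:**
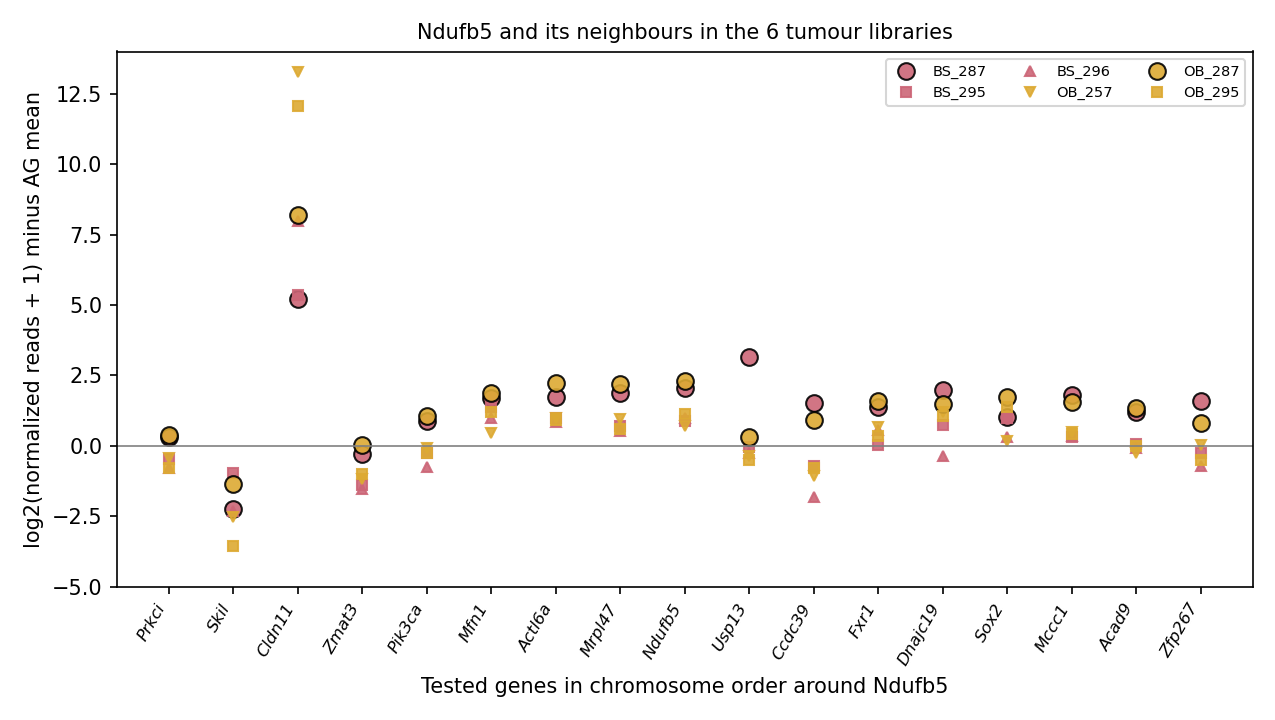
For Ndufb5 and the 8 tested genes on either side of it in chromosome order, points give the log2 difference of each of the 6 tumour libraries from the AG mean. The outlined points of BS_287 and OB_287 lie above the others for Ndufb5 and 13 of its 16 neighbours, while Cldn11, a myelin gene at 0 in all AG libraries, follows another order.

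Ndufc2 had 2200, 1863 and 1704 normalized reads in AG, 6197, 3940 and 5017 in BS, and 2109, 5235 and 3453 in OB. All BS libraries were above AG, and OB_257 was within the AG range. Ndufc2 rose in BS by 1.38 ± 0.32 (limma adjusted p = 0.0112, and 0.0508 without AG_3), and its change in OB was 0.82 ± 0.32 (adjusted p = 0.0800). The difference of OB from BS was -0.56 ± 0.32 (adjusted p = 0.602).

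Ndufa1, a small subunit needed for assembly of the membrane arm, went the other way. It had 1845, 1587 and 1927 normalized reads in AG, 519, 917 and 901 in BS, and 692, 918 and 1475 in OB. All tumour libraries were below AG. It fell in BS by 1.24 on the log2 scale (SE 0.32, limma adjusted p = 0.0174), and in OB its change was -0.86 ± 0.32 (adjusted p = 0.0664). Without AG_1 or AG_3 the BS call was lost, with an adjusted p of up to 0.0700. Between these ends lay accessory subunits such as Ndufb11, at -0.78 ± 0.33 in OB, and Ndufc1, at 0.67 ± 0.27, which were not called.

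**Figure D4:**
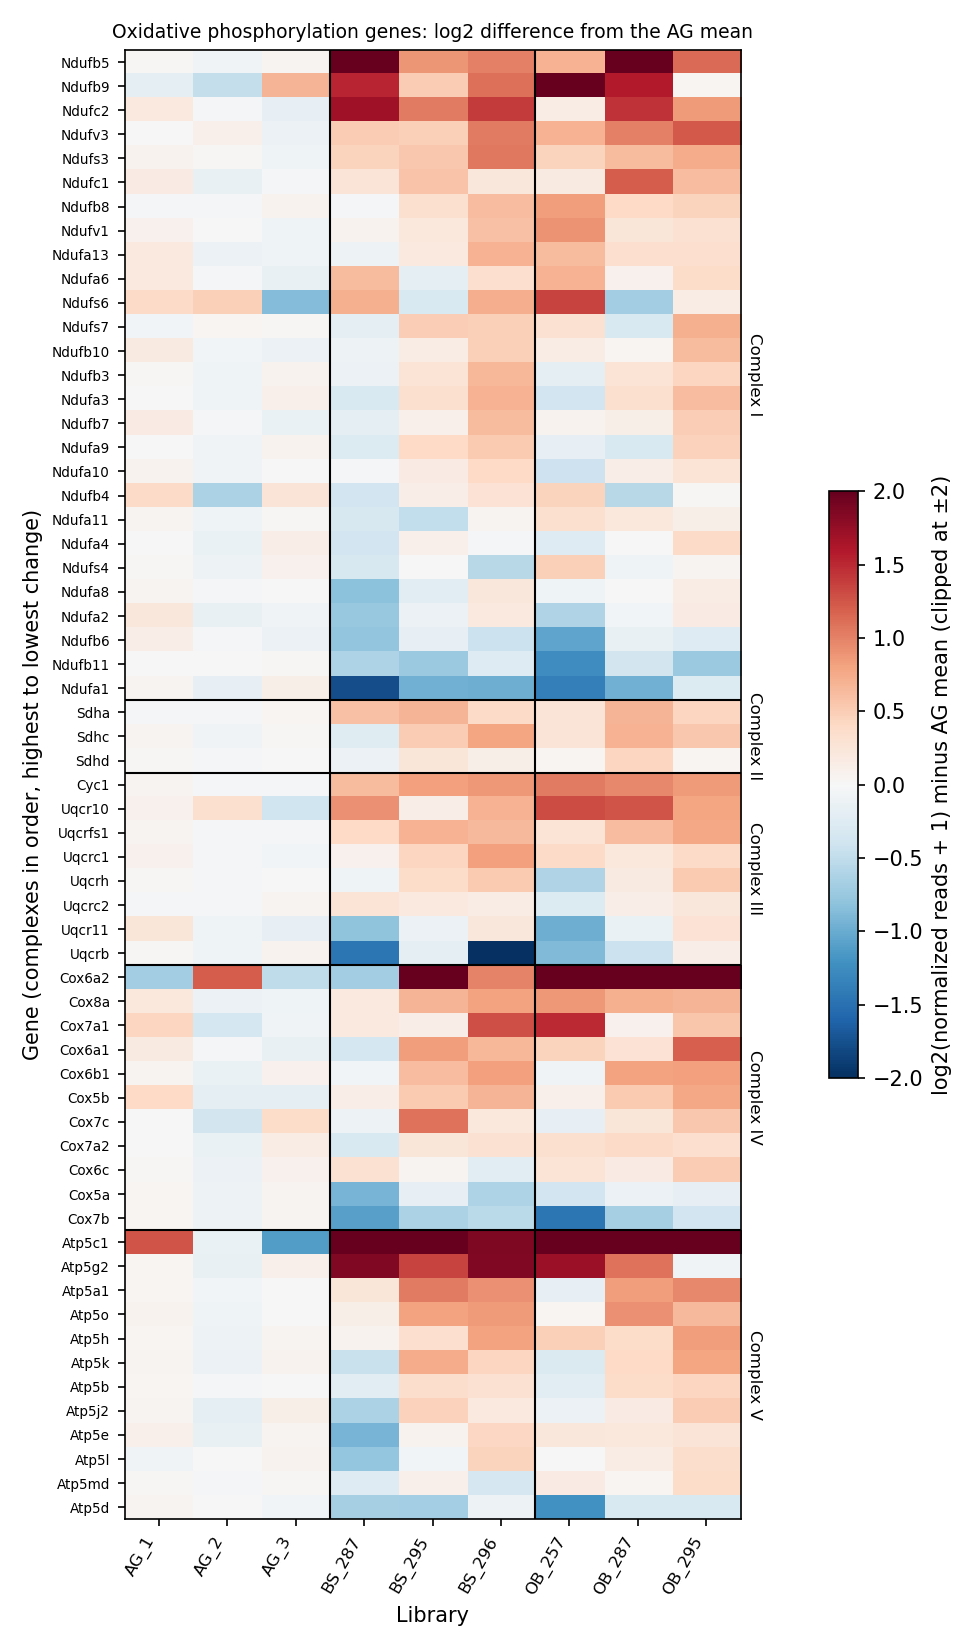
Each of the 61 rows is 1 tested member and each column 1 library, and the colour is the log2 difference from the AG mean, clipped at 2 in either direction. Rows are ordered within complexes I to V, and BS_287 shows the fewest members above the AG mean of any tumour library, 25 of 62.

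Complex II feeds electrons from succinate, and Sdha, its flavin-binding catalytic subunit, rose in both tumour groups. Sdha had 7773, 7748 and 8057 normalized reads in AG, 11830, 12562 and 10288 in BS, and 9359, 12592 and 10586 in OB, so that the groups did not overlap with AG. Its change was 0.55 ± 0.15 in BS (limma adjusted p = 0.0217) and 0.45 ± 0.15 in OB (adjusted p = 0.0457), both called. Without any 1 of the AG libraries neither call held, with an adjusted p of at most 0.140 in OB and 0.0835 in BS over all alternatives. The membrane anchors Sdhc and Sdhd changed by 0.50 ± 0.26 and 0.17 ± 0.16 in OB and by 0.35 ± 0.26 and 0.08 ± 0.16 in BS, and were not called.

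In complex III, 3 of 8 tested members rose in OB (37.5%, beside 16% of all genes) and 2 in BS (25%, beside 15.6%), and 0 fell. Cyc1, the cytochrome c1 subunit that hands electrons to cytochrome c, had 3499, 3321 and 3313 normalized reads in AG, 5231, 5950 and 6190 in BS, and 6934, 6565 and 6064 in OB. The lowest tumour library was well above the highest AG library. Cyc1 rose 1.93-fold in OB (log2 0.95 ± 0.13, limma adjusted p = 0.000751) and 1.71-fold in BS (log2 0.77 ± 0.13, adjusted p = 0.00216). It was called in all 3 comparisons with AG under every alternative tried, at an adjusted p of at most 0.0190.

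Uqcrfs1, the Rieske iron-sulfur protein, had 2689, 2499 and 2550 normalized reads in AG, 3395, 4163 and 4050 in BS, and 3126, 3949 and 4400 in OB. All tumour libraries were above AG, and it rose by 0.55 ± 0.17 in OB (limma adjusted p = 0.0308) and 0.58 ± 0.17 in BS (adjusted p = 0.0260). Both calls were lost without any 1 AG library, at up to 0.115 and 0.103 over all alternatives. The large structural core proteins Uqcrc1 and Uqcrc2 were not called, at 0.33 ± 0.19 and 0.03 ± 0.16 in OB and 0.44 ± 0.19 and 0.21 ± 0.16 in BS.

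Uqcr10, a small subunit with 3 RefSeq transcripts and 15.2 to 51.9 normalized reads, rose in OB by 1.12 ± 0.37 (limma adjusted p = 0.0470). This call was lost in 10 of 20 alternatives, among them the highest row alone and each fit without 1 OB or 1 AG library, and its adjusted p reached 0.175. Uqcrb, which lies near the site where coenzyme Q is bound, had 534, 493 and 548 normalized reads in AG, 193, 460 and 131 in BS, and 283, 390 and 575 in OB. It was below AG in every BS library, but its change of -1.21 ± 0.45 did not pass the test (adjusted p = 0.0689).

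In complex IV the isoforms differed. Cox8a, the form of subunit VIII found in most tissues, had 2371, 1891 and 1938 normalized reads in AG, 2365, 3311 and 3594 in BS, and 3770, 3351 and 3278 in OB. BS_287 was inside the AG range and the other tumour libraries were above it. Cox8a rose by 0.75 ± 0.19 in OB (limma adjusted p = 0.0159) and by 0.56 ± 0.19 in BS (adjusted p = 0.0485). The BS call was lost in 10 of 21 alternatives and the OB call without AG_2 or AG_3. Its muscle counterpart Cox8b was below the minimum for the test, with 22.7 normalized reads in BS_296 and at most 3.26 elsewhere.

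Cox6a2, the heart and muscle form of subunit VIa, was high in a single library. It had 0.834, 5.91 and 1.09 normalized reads in AG, 0.839, 26.7 and 4.93 in BS, and 543, 45.7 and 11.955 in OB_257, OB_287 and OB_295. Cox6a2 reached the minimum for the test through BS_295 and the OB libraries alone, so that its direction was not independent of the filter. Its fitted change in OB was 4.53 ± 1.43 (limma adjusted p = 0.0387), a value that depends on the added count of 1 since AG held a few reads, and 7 of 20 alternatives lost the call, those without OB_257, OB_287, BS_296 or any 1 AG library among them (adjusted p up to 0.123). The 1 muscle marker found in the table, Myh1, was 0 in OB_257 and at most 15.008 in any library. The broadly expressed form Cox6a1 had 3687, 3210 and 2933 normalized reads in AG, 2560, 5824 and 5171 in BS, and 4420, 4004 and 7443 in OB. Its change was 0.64 ± 0.34 in OB (adjusted p = 0.180) and 0.38 ± 0.34 in BS (adjusted p = 0.420).

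For subunit VIIa, the muscle form Cox7a1 stayed between 8.87 and 34.3 normalized reads and the liver form Cox7a2 between 2100 and 3384, with changes of 0.71 ± 0.51 and 0.34 ± 0.18 in OB that were not called. Cox7a2 was higher in all 3 OB libraries than in any BS library, at 0.27 ± 0.18 (adjusted p = 0.665). Cox4i2, the oxygen-sensitive form of subunit IV, had at most 5.44 normalized reads in any library, and Cox6b1 changed by 0.52 ± 0.30 in OB (adjusted p = 0.213). Cox7a2l, which joins complexes III and IV, had at most 9.95 normalized reads and more than 1 transcript. Cox5a, a subunit on the matrix side, changed by -0.57 ± 0.20 in BS (limma adjusted p = 0.0580).

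Cox7b, a small accessory subunit of complex IV, had 4701, 4265 and 4752 normalized reads in AG, 2162, 2935 and 3151 in BS, and 1685, 2882 and 3520 in OB. All tumour libraries were below AG. It fell in OB by 0.83 on the log2 scale (SE 0.27, limma adjusted p = 0.0456), and its change in BS was -0.75 ± 0.27 (adjusted p = 0.0630). Of 21 alternatives, 14 lost the call in OB, upper-quartile rescaling and total-read scaling among them (adjusted p = 0.0679 and 0.161).

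In complex V, the main subunits of the catalytic head of ATP synthase were abundant, and neither was called. Atp5b, the beta subunit, had 40495, 38778 and 39498 normalized reads in AG, 34287, 50540 and 48982 in BS, and 33684, 51189 and 53480 in OB. The groups overlapped, and its change was 0.19 ± 0.22 in OB (limma adjusted p = 0.538) and 0.15 ± 0.22 in BS (adjusted p = 0.631). Atp5a1, the alpha subunit, had 20939, 19592 and 20490 normalized reads in AG, 23939, 42002 and 38250 in BS, and 18094, 36468 and 39741 in OB, with changes of 0.73 ± 0.32 in BS (adjusted p = 0.111) and 0.55 ± 0.32 in OB (adjusted p = 0.218). Every BS library was above AG, and OB_257 was below it. Atp5d, the delta subunit of the central stalk, had the lowest change of the complex, at -0.61 ± 0.30 in OB (adjusted p = 0.147) and -0.48 ± 0.30 in BS (adjusted p = 0.243).

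Atp5g2 encodes a form of subunit c, the proton-carrying ring. It had 182, 160 and 188 normalized reads in AG, 641, 450 and 635 in BS, and 578, 374 and 167 in OB. All BS libraries were above AG, whereas OB_295 lay inside the AG range. Atp5g2 rose 3.21-fold in BS (log2 1.68 ± 0.42, limma adjusted p = 0.0145, and up to 0.0589 without AG_1 or AG_2), and its change in OB was 0.91 ± 0.42 (adjusted p = 0.125). The difference of OB from BS was -0.78 ± 0.42 (adjusted p = 0.574). Atp5g1, another gene for subunit c, had at most 10.9 normalized reads and has more than 1 transcript.

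Atp5c1, the gamma subunit of the central stalk, has 3 RefSeq transcripts and few reads. It had 4.17, 0.986 and 0 normalized reads in AG, 9.23, 18.1 and 6.90 in BS, and 8.84, 45.7 and 13.0 in OB. The tumour libraries were all above AG, and the fitted change was 3.10 ± 0.77 in OB (limma adjusted p = 0.0149) and 2.41 ± 0.77 in BS (adjusted p = 0.0410). The size depends on the added count of 1. Atp5c1 reached the minimum for the test only through BS_295, OB_287 and OB_295, and was untested without any 1 of them. Its direction was thus not independent of the filter. The OB call was lost without AG_2 or AG_3 (adjusted p up to 0.0696), and 7 of 17 alternatives lost the BS call, a pseudocount of 5, quantile normalization and edgeR among them (adjusted p up to 0.160). With the members of 1 RefSeq transcript alone, an alternative chosen after seeing the data, 8 of 50 were called in OB against AG (16%, beside 34.9% of all genes) and 9 in BS against AG (18%, beside 35.1%).

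**Figure D5:**
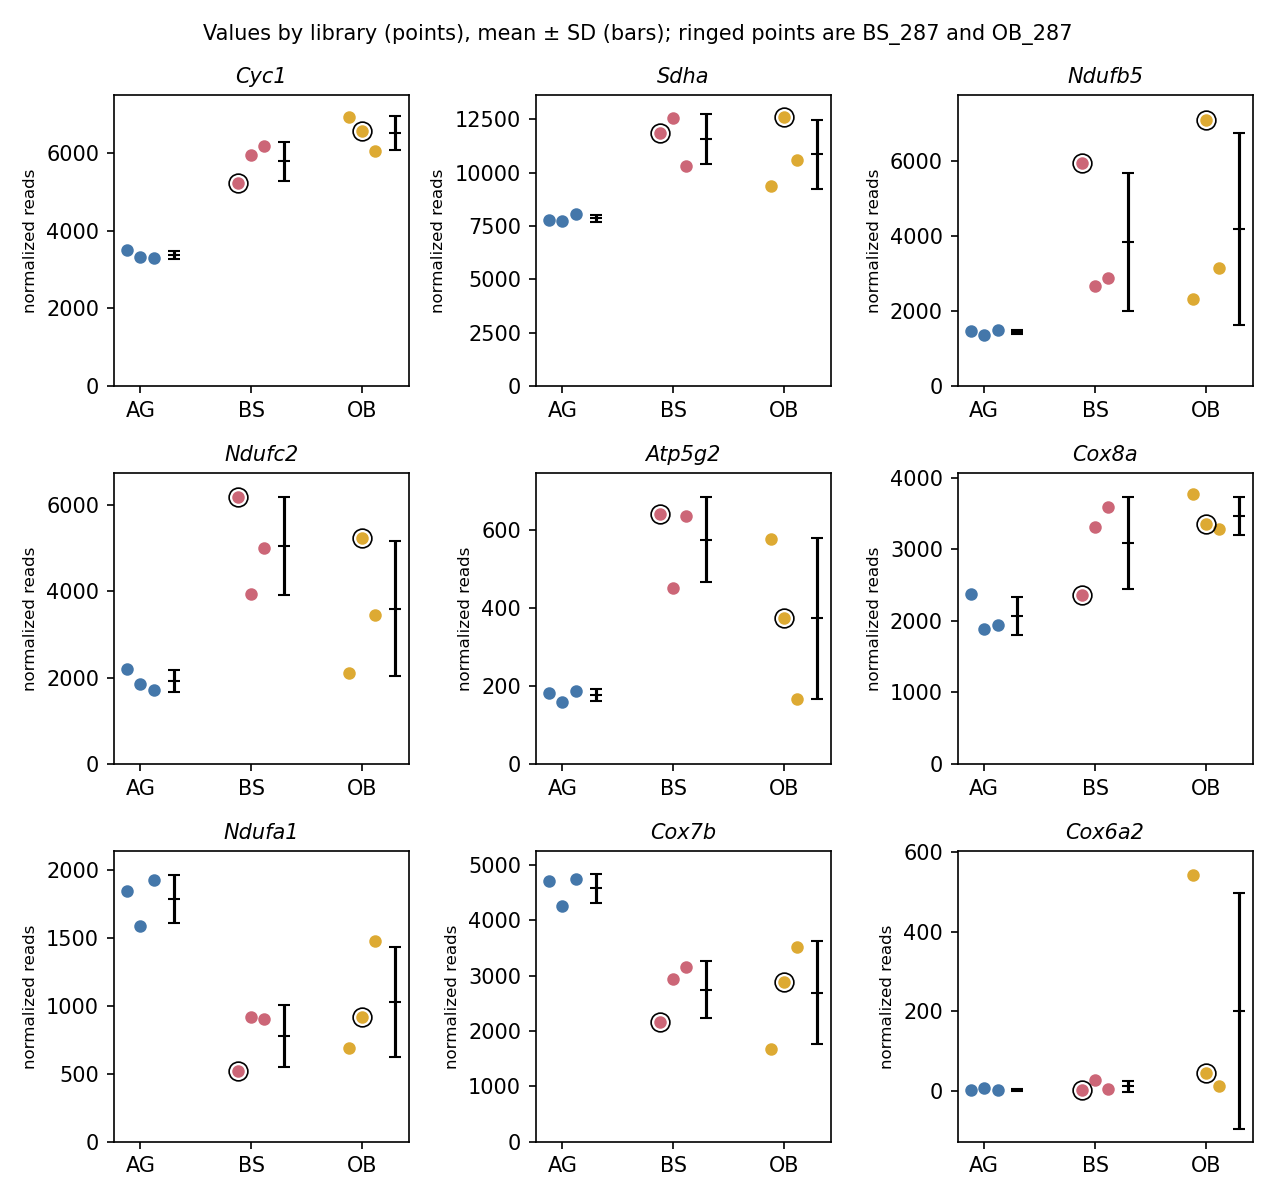
Points give the normalized reads of 9 named members in each library of AG, BS and OB, and bars give the mean and SD of 3 libraries, with BS_287 and OB_287 ringed. Cyc1 and Sdha are higher in every tumour library, Ndufb5 stands out in the ringed libraries, Ndufa1 and Cox7b are lower in every tumour library, and Cox6a2 reaches 543 in OB_257 only.

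Both members that fell are on the X chromosome, as named by the RefSeq gene table. The X-linked members tested were Ndufa1, Cox7b and Ndufb11, and they had the lowest, the third lowest and the fourth lowest change among the 62 for both tumour groups against AG, at -1.05, -0.79 and -0.66. The second lowest, at -0.80 and not called, was Uqcrb on chromosome 13. Ndufb11, another complex I subunit of the membrane arm, had 65.9, 66.0 and 67.5 normalized reads in AG, 42.8, 39.5 and 55.2 in BS, and 27.6, 51.4 and 39.1 in OB. It was below AG in every tumour library, at -0.66 ± 0.29 (limma adjusted p = 0.0964). The other 326 tested X-linked genes had a median change of -0.92 in the same comparison, and 62.3% of them were called. Of those genes 46.6% lay below Ndufa1, 52.8% below Cox7b and 57.4% below Ndufb11, so that all 3 lay near the middle of the X-linked genes. The median shift of the X-linked genes was -0.66 to -1.40 in the 6 tumour libraries and -0.03 to 0.04 in AG. Xist was 1478 to 2079 normalized reads in AG. The part of this shift in the changes of the members was not tested.

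No member passed the test between the tumour groups. In OB against BS, 0 of 62 members were called by limma, edgeR or DESeq2, with 2 members at an unadjusted p under 0.05 in limma (Ndufa11 and Cox6a2). The background was 0% of all 10576 genes in limma, with 1019 at an unadjusted p under 0.05, 0 genes in edgeR, and 163 higher and 70 lower in DESeq2. The members' median difference was 0.09 beside 0.01 for all genes. Ndufa11, an accessory subunit of complex I, had 870, 773 and 1125 normalized reads in BS and 1349, 1259 and 1181 in OB. Its difference was 0.47 ± 0.18 (adjusted p = 0.465), and Ndufa11 and Cox7a2 were the members whose OB libraries were all above BS (3.23%, beside 5.36% of all genes), while 0 members were below (beside 4.63%).

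The tumour libraries varied more among themselves than the AG libraries did. The median SD of the members on the log2 scale reached 0.37 in BS and 0.35 in OB and was 0.10 in AG, beside 0.47, 0.48 and 0.12 for all tested genes. Since the fit pools these spreads, an SE or p-value above does not measure the spread of the compared groups alone. The median difference of the members from the AG mean was -0.11 in BS_287, 0.26 in BS_295 and 0.47 in BS_296, and 0.17, 0.25 and 0.43 in OB_257, OB_287 and OB_295. BS_287 was the tumour library in which the fewest members, 25 of 62, exceeded the AG mean, against 55 in OB_295.

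Levels of different members are compared here per kb of transcript, for the 52 members with 1 RefSeq transcript. Atp5b and Atp5a1 ranked first and second in all 3 groups, at 20663 and 8232 normalized reads per kb in AG, 23279 and 14055 in BS, and 24070 and 12721 in OB. The order of the members was much the same in the tumour groups, with a Spearman rho of 0.98 between BS and OB over these 52 genes, and less alike with AG, at 0.88 for BS and 0.89 for OB. These rho describe genes and are no test. Ndufc2 moved from rank 20 in AG to 4 in BS and 10 in OB, and Ndufb5 from 38 to 16 and 15. Cox7b moved from rank 7 to 27 and 28 and Ndufa1 from 10 to 34 and 30.

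The genes outside the complexes with the profile most like the mean of the members' standardized log2 values over the 9 libraries were Kiz (Pearson r = 0.97), Tomm7 (0.97), Coq6 (0.96), Trank1 (0.95) and Dele1 (0.95). This is a description, since the libraries fall in groups. Tomm7, for example, had 1135, 1122 and 1067 normalized reads in AG, 1011, 1593 and 1679 in BS, and 1244, 1558 and 1830 in OB, again with BS_287 the lowest of the tumour libraries.

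Genes that build or feed the complexes moved in both directions. Of all genes, 16% were called higher and 19% lower in OB against AG, and 15.6% and 19.5% in BS against AG. The lists here and below hold few genes, and their counts were not tested against these shares. Of 14 tested complex IV assembly factors 3 rose in each tumour group and 0 fell, with a median of 0.06 in OB and 0.01 in BS. They were Cox10, which makes heme for cytochrome c oxidase, with 0.88 ± 0.19 in OB (limma adjusted p = 0.00774) and 0.77 ± 0.19 in BS (adjusted p = 0.0144), Sco1, a copper chaperone, with 0.64 ± 0.18 and 0.61 ± 0.18, and Taco1, a translational activator of the mitochondrial Cox1 message, with 0.52 ± 0.17 and 0.77 ± 0.17. Of 11 complex I assembly factors 0 rose and 1 fell in each group: Tmem126b, by 0.94 in OB and 0.88 in BS on the log2 scale. Of 4 complex II assembly factors, Sdhaf2, which helps insert the flavin in Sdha, fell in BS by 0.77 on the log2 scale (adjusted p = 0.0154), a call lost under quantile normalization, total-read scaling and without any 1 AG library (adjusted p up to 0.114). Of 3 ATP synthase assembly factors, Fmc1 rose in OB by 1.13 ± 0.35 (adjusted p = 0.0353), and the 1 tested complex III assembly factor was not called.

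Of 10 tested genes of coenzyme Q synthesis 2 rose in OB (beside 16% of all genes) and 3 in BS (beside 15.6%), and 1 fell in each (beside 19% and 19.5%). Coq9 had 800, 741 and 702 normalized reads in AG, 1141, 1482 and 2235 in BS, and 1777, 1719 and 1652 in OB, and rose 2.29-fold in OB (SE 0.24 on the log2 scale, limma adjusted p = 0.00494) and 2.08-fold in BS (adjusted p = 0.00901). Coq5 rose by 0.71 ± 0.21 and 0.68 ± 0.21, Pdss1, which starts the side chain, rose in BS by 1.08 ± 0.35 (adjusted p = 0.0402), and Coq10b fell by 2.71 in OB and 2.07 in BS on the log2 scale. Among 6 other electron carriers, Prodh, which oxidizes proline, rose by 1.72 ± 0.35 in OB and 1.49 ± 0.35 in BS, and Dhodh of pyrimidine synthesis rose in BS by 1.01 ± 0.21 (adjusted p = 0.00644). Etfa, which takes electrons from fatty acid oxidation, fell in OB by 0.67 on the log2 scale (adjusted p = 0.0473), and 12 of 21 alternatives lost this call, all 3 rescalings and edgeR among them (adjusted p up to 0.276). The X-linked Aifm1 fell by 1.55 in OB and 1.22 in BS.

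Of 14 tested genes of the TCA cycle and pyruvate dehydrogenase 2 rose (beside 16% of all genes in OB and 15.6% in BS) and 1 fell (beside 19% and 19.5%) in each tumour group. Pdhx, which holds the E3 enzyme in the pyruvate dehydrogenase complex, rose by 1.03 ± 0.21 in OB and 0.86 ± 0.21 in BS, and the X-linked Pdha1 fell by 1.38 in OB and 1.13 in BS on the log2 scale. Of 9 tested regulators of mitochondrial biogenesis 2 rose in OB and 1 in BS, and 0 fell: Polg2, at a mean of at most 39.1 normalized reads, in both groups, and Esrra, a nuclear receptor of energy metabolism, in OB (0.88 ± 0.27, adjusted p = 0.0333). Their median was 0.23 in OB and 0.43 in BS.

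Of 9 tested transporters of the mitochondrial membranes, Slc25a3, the phosphate carrier that supplies ATP synthase, fell in both groups. It had 13598, 12639 and 13462 normalized reads in AG, 6533, 8588 and 8499 in BS, and 5774, 8321 and 10004 in OB, a fall by 0.76 on the log2 scale in each (limma adjusted p = 0.0252 in OB and 0.0248 in BS), and quantile normalization and total-read scaling ended both calls. Tomm20, an import receptor, rose in OB by 1.00 ± 0.25 (adjusted p = 0.0147). Of 8 tested genes for uncoupling and hypoxia switches, 0 rose in either group (beside 16% of all genes in OB and 15.6% in BS). In OB 2 fell (beside 19%) and in BS 3 (beside 19.5%). Pdk4, a kinase that turns off pyruvate dehydrogenase, had 1929, 1798 and 1897 normalized reads in AG, 0, 12.8 and 33.5 in BS, and 0, 0.952 and 19.6 in OB, with adjusted p of 0.00151 in OB and 0.00322 in BS. The related X-linked kinase Pdk3 fell by 1.95 in OB and 1.93 in BS on the log2 scale, and Higd2a, a factor bound to complexes III and IV, fell in BS by 0.44 (adjusted p = 0.0498), where 12 of 21 alternatives lost the call, all 3 rescalings and edgeR among them (adjusted p up to 0.627). The 1 tested complex I subunit that the symbol rule leaves out was not called, at -0.33 in OB and -0.28 in BS. Of the calls named here outside the complexes, those of Coq9, Coq10b, Pdk3 and Pdk4 in both groups, of Cox10, Prodh, Pdhx and Aifm1 in OB and of Dhodh in BS held under every alternative tried. Each of the others was lost without at least 1 of the AG libraries. The call of Tmem126b was also lost under total-read scaling in both groups, and that of Pdha1 in BS under all 3 rescalings.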

How the data were processed

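Per the labels, total RNA of 9 mouse libraries (AG, BS and OB, 3 each) was made into TruSeq libraries and sequenced on a HiSeq. Tools listed per the submitters' processing notes are DESeq2 (1.20.0), featureCounts from the Subread package (1.6.2), HISAT2 (2.1.0) and bcl2fastq (1.8.4), with the build mm9. The sources used here give no strand option, gene models or treatment of shared reads.

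Signal values were deposited as 1 table of reads per RefSeq transcript divided by 1 size factor per library, with 16260 rows, and all of its columns were used. Undoing the factor gave whole reads within 0.05 reads for 100.0% of values. Rows were named from RefSeq (16202) or GENCODE (41), rows without a name (17) were left out, and rows of 1 symbol were summed. Levels are normalized reads unless stated.

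Values were tested as log2(value + 1) by limma (version 3.58.1, under R 4.3.3), fitting 3 group means to all 9 libraries with a variance trend, two-sided tests and Benjamini-Hochberg adjustment over 10576 genes within each of 4 comparisons. Log2 changes are on that scale and understate changes of low genes. Named were called members, the highest and lowest change of each complex, tissue isoforms, catalytic subunits, up to 3 called genes of each other pathway list with a mean of at least 50 in the higher group, and the 5 genes most like the members. Genes named outside this rule, such as Ndufa11, Ndufb9, Ndufb11, Ndufc1, Cox5a, Polg2 and the neighbours of Ndufb5, were chosen after their values were seen. Of the genes this rule names, 2 are not reported here, 1 of them a member that counts and sums include and the plots by gene leave out. The members and lists were chosen with earlier results of these data known. The method was tested on simulated data. Alternatives were other pseudocounts, filters and scalings, the recovered reads in DESeq2 1.42.0 and edgeR 4.0.16, and each library left out in turn. Library totals were 11300273 to 19868282 reads.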

Additional observations from a re-analysis of the deposited data

How the results depend on the processing

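Against 11 members called in OB against AG and in BS against AG and 12 for both tumour groups, the counts were 7 and 6 in the first 2 comparisons without a variance trend. They were 18 (OB) and 22 (both) with quantile normalization, 21 (both) with upper-quartile rescaling, 17 (OB) and 19 (both) with DESeq2, and 31 (OB), 20 (BS) and 33 (both) with total-read scaling, which was added after seeing the data. With quantile normalization 18 of 62 members were higher in OB, beside 1845 of all genes. For both, 21 members were higher, beside 2270 of all genes. The share of members called higher was then above that of all genes. Upper-quartile rescaling called 19 members higher and 2 lower for both, beside 2467 and 2017 of all genes. DESeq2 called 16 higher and 1 lower in OB, beside 2235 and 2046, and 17 and 2 for both, beside 2523 and 2359. In these fits and with quantile normalization, the share of members called in both directions together stayed below that of all genes. For both, total-read scaling called 3177 of all genes higher and 1692 lower. Leaving out each library in turn gave 1 to 16 in OB, 2 to 13 in BS and 1 to 20 for both. The members' median change of 0.29 in OB became 0.42 with upper-quartile rescaling, 0.50 with quantile normalization and 0.64 with total-read scaling. That of 0.26 in BS became 0.42 with upper-quartile rescaling, 0.46 with quantile normalization, 0.60 with total-read scaling, 0.13 without BS_296 and 0.41 without BS_287. That of 0.26 for both became 0.41, 0.42 and 0.61 with these scalings and 0.16 without OB_295. The median of all genes in OB, BS and both was then 0.13, 0.15 and 0.14 with upper-quartile rescaling, 0.08, 0.10 and 0.09 with quantile normalization, and 0.34, 0.32 and 0.33 with total-read scaling. The causes of these shifts were not tested. No called change of a named gene reversed under any alternative run. OB against BS gave 0 members in each, and the members' median there, 0.09, was -0.08 without BS_287 and -0.02 without OB_295. A fit to the compared groups alone was not run for both tumour groups, since that comparison already uses all libraries.

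BS_287 and OB_287, and BS_295 and OB_295, share a number in their titles. Their deviations from the group means correlated at 0.07 and 0.30 over all genes, beside -0.41 to 0.29 for unlike numbers. BS_287 and OB_287 also shared low Xist and raised genes near Ndufb5. With 2 pairs and no stated meaning, the number was not taken as a pairing. If it marks a shared source, the tumour libraries are not all independent, which the fit for both tumour groups leaves out. With the number as a replicate block, OB against BS still gave 0 members, a median of 0.28 in place of 0.09, and 184 genes higher and 67 lower in place of 0. In that fit BS_296 and OB_257 had terms of their own, so the difference rested on the 2 pairs alone. Its residual spread came largely from AG, where the median SD over all genes was 0.12, beside 0.47 in BS and 0.48 in OB. These calls are therefore not read as differences between the tumour groups.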
